A study of Mus musculus with 34 samples.

Results

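ATF3, Jun and JunD are monomers of the AP-1 family, and their resting binding sites in macrophages of the mouse strain BALB/cJ are described here. The members are the peaks of 3 lists, those with the genotype Balb/cJ, the treatment Veh and the antigens Atf3, Jun and JunD. The 3 lists hold 59115 peaks of the 596383 in the 30 lists of the series, which has 34 samples. Peaks that overlapped by 1 bp or more were merged, which gave 33546 loci in 7 overlap classes. A locus with a peak of a single monomer is called ATF3-only, Jun-only or JunD-only.

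The study mapped AP-1 monomers by ChIP-seq in thioglycollate elicited macrophages (TGEMs), cells recruited to the mouse peritoneum by an injected irritant. TGEMs came from male mice 8 weeks old, and Veh is a PBS control. The lists set beside the resting BALB/cJ lists are those of ATF3, Jun, JunD, PU.1, CEBPα and PPARγ in Veh C57BL/6 TGEMs of the same sex and age, and those of ATF3, Jun, JunD, Fos and JunB in BALB/cJ TGEMs given KLA for 1 h. KLA is Kdo2 lipid A, a TLR4 agonist. The replicates of a condition were deposited as 1 joint list, so no difference between lists could be tested against the spread between mice. Intervals are 95% intervals over loci and cover sampling of loci only.

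AP-1 proteins bind DNA as dimers through a leucine zipper and a basic region that reads the TRE or the closely related CRE. Jun and JunD share the Jun-type zipper, and ATF3, a stress-induced member, can pair with Jun proteins or with itself, so a locus with a single called monomer still holds a dimer. In macrophages many AP-1 sites lie in enhancers that are also bound by the lineage factors PU.1 and C/EBP.

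The ATF3 list held 19506 peaks with counts from 14 to 286 (median 36), the Jun list held 10957 peaks with counts from 15 to 128 (median 30), and the JunD list held 28652 peaks with counts from 14 to 286 (median 43). Counts summed to 891930, 387471 and 1544892 over the lists, so the Jun list was the shortest with the lowest sum and the JunD list the longest with the highest. Median peak width was 231 to 236 bp. The counts are not scaled to library size, and peaks were therefore ranked only within a list, as a percentile from 0 to 100. No expression data enter here, so the cell label could be set only against peaks near marker genes: 8 of 8 macrophage markers (Adgre1, Cd68, Csf1r, Itgam and Spi1 among them) had a locus in the gene or within 5 kb of it, against 1 of 5 T cell, 2 of 5 B cell, 2 of 5 neutrophil, 2 of 5 eosinophil or mast cell and 0 of 5 fibroblast markers. All protein-coding genes had one in 45.7% of cases.

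The strongest locus of each class shows what the classes look like in sequence, and 3 further loci are added for features that the counts below turn on. Each line gives the central 200 bp of a locus on the plus strand of GRCm38, the C57BL/6J reference, without the variants of BALB/cJ. Capitals mark exact matches, on either strand, to the TRE (TGACTCA or TGAGTCA), the CRE (TGACGTCA, TGACCTCA, TGAGGTCA or TGAGCTCA), the CEBP motif (TTACACAA, TTACATAA, TTACGCAA, TTACGTAA, TTGCACAA, TTGCATAA, TTGCGCAA or TTGCGTAA), the PU.1 motif (ACTTCCT) and TGATGCAA, which joins an ATF half-site to a C/EBP half-site. No match says only that these letters are not in the window.
ATF3-only, Uvssa promoter, chr5:33378444-33378643: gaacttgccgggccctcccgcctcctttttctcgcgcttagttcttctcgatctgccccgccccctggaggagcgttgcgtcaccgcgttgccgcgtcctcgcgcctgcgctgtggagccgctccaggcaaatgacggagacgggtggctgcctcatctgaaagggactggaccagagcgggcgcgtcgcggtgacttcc
ATF3-only, nearest to Klhdc4, chr8:121850966-121851165: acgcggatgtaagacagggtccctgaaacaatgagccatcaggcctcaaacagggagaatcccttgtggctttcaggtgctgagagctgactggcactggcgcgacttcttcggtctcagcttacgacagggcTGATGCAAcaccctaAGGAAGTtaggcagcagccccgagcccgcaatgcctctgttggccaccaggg
ATF3-only, Slc39a11 intron, chr11:113569651-113569850: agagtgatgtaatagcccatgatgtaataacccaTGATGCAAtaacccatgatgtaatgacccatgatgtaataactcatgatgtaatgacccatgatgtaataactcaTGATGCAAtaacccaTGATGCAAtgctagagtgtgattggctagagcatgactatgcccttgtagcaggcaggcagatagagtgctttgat
Jun-only, nearest to Incenp, chr19:9938994-9939193: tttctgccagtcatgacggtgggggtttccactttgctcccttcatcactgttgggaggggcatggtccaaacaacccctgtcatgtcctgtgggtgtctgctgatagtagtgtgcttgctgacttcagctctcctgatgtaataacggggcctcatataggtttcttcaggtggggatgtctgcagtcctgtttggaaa
Jun-only, Klf6 promoter, chr13:5861211-5861410: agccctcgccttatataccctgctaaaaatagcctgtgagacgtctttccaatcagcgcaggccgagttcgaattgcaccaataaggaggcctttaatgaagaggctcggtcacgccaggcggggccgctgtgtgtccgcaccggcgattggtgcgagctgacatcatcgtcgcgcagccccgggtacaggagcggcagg
JunD-only, Igf2r intron, chr17:12758029-12758228: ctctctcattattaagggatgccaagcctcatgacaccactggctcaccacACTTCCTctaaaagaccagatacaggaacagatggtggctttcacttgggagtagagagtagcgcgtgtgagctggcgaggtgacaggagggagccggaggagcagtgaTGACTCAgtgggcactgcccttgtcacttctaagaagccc
ATF3 and Jun, nearest to Pfkfb3, chr2:11429636-11429835: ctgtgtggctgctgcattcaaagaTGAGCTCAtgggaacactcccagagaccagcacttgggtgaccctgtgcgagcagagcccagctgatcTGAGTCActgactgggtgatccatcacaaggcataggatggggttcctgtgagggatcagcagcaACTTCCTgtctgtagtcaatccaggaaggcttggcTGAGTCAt
ATF3 and JunD, Pkd1l2 intron, chr8:117074689-117074888: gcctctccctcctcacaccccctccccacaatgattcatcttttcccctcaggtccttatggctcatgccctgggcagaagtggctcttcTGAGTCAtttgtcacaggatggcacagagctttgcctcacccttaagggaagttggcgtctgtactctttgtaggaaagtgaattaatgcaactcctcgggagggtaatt
Jun and JunD, Stk40 promoter, chr4:126103208-126103407: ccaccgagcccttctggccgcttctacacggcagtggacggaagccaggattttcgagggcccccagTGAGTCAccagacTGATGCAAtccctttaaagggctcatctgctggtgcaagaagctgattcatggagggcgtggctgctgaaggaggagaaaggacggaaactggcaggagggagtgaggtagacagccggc
all 3, nearest to Tob2, chr15:81845747-81845946: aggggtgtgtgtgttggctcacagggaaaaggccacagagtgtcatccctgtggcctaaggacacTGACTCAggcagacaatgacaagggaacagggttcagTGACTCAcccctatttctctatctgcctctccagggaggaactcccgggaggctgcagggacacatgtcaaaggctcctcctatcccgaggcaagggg

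JunD-only was the most frequent class, with 12047 loci (35.9%, interval 35.4 to 36.4). Loci with all 3 monomers followed with 8616 (25.7%, interval 25.2 to 26.2), then ATF3 and JunD with 6381 (19.0%) and ATF3-only with 4174 (12.4%). Jun was rarely found without JunD. Jun and JunD shared 1579 loci (4.71%), while Jun-only held 439 loci (1.31%) and ATF3 and Jun 310 (0.924%). A single monomer was called at 49.7% of loci. Read by list, 42.0% of JunD peaks, 21.4% of ATF3 peaks and 4.01% of Jun peaks had no partner, and 78.7% of Jun peaks lay at loci with all 3.

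**Figure D1:**
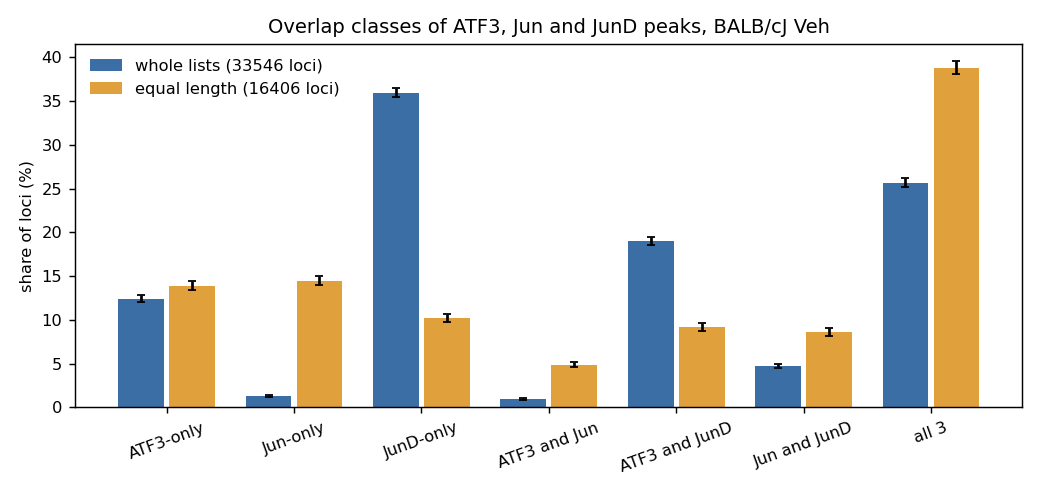
Share of loci (%) in each of the 7 overlap classes for the whole lists (33546 loci) and for lists of equal length (16406 loci), with 95% Wilson intervals as bars. Jun-only rises from 1.31% to 14.5% and JunD-only falls from 35.9% to 10.2% when every list has the length of the Jun list.

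The order of the single-monomer classes followed list length. With each list reduced to its 10957 peaks of highest count, which kept ATF3 peaks from a count of 33 and JunD peaks from 52, 16406 loci remained and all 3 became the largest class with 6363 (38.8%). Jun-only then held 2374 loci (14.5%, interval 13.9 to 15.0), ATF3-only 2278 (13.9%, interval 13.4 to 14.4) and JunD-only 1678 (10.2%, interval 9.77 to 10.7). The intervals of Jun-only and ATF3-only overlap, and that of JunD-only lies below both.

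Loci that were single at equal length often had a weaker partner in the whole lists. Of the 2374 Jun-only loci at equal length, 439 (18.5%) were Jun-only in the whole lists, since JunD peaks below the equal-length minimum lay at most of the others (904 became Jun and JunD, 862 all 3). The same was true of 1225 of 2278 ATF3-only loci, which became ATF3 and JunD, and 1051 (46.1%) stayed ATF3-only. JunD-only had the highest unchanged share, with 1089 of 1678 (64.9%). The Jun list is whole at equal length and added no peaks, so the 3 classes did not face equal numbers of added peaks. C57BL/6 gave a like split at equal length: 2152 Jun-only, 1937 ATF3-only, 1635 JunD-only and 6726 all 3 of 15927 loci.

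Peaks without a partner were weak ones in each list. The median percentile rank of the ATF3 peak was 23.8 at ATF3-only loci and 71.6 at loci with all 3. For Jun it was 12.2 against 59.3, and for JunD 25.7 against 82.0. Pairs lay between these values for each monomer, for example at 38.3 for ATF3 and 50.7 for JunD at loci of ATF3 and JunD. Overlap and rank come from the same lists, so these values describe the classes and test nothing.

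**Figure D2:**
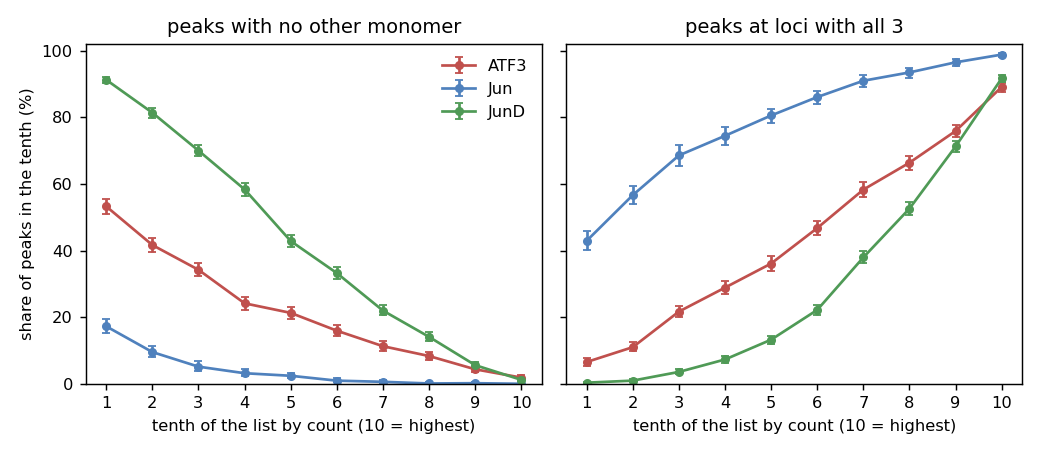
Share (%) of the peaks in each of 10 bins of a list by count (marked 1 to 10 on the axis) that had no other monomer (left) or lay at loci with all 3 (right), for ATF3, Jun and JunD, with 95% Wilson intervals. Peaks without a partner fall from 91.2% to 1.19% for JunD, from 53.2% to 1.86% for ATF3 and from 17.2% to 0 for Jun between the lowest and the highest bin.

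In the lowest of 10 bins by count, 91.2% of JunD peaks, 53.2% of ATF3 peaks and 17.2% of Jun peaks had no partner. In the highest bin, the shares were 1.19% (34 of 2864), 1.86% (36 of 1937) and 0 of 1099, which for Jun allows a share of up to 0.273%. Between 89.1% and 98.8% of the peaks in the highest bins lay at loci with all 3, so the strongest resting peaks of each monomer were mostly called for both others as well.

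Holding partners to the same percentile can only raise the number of peaks without one, so the values below are a description. Among the strongest 10% of each list, 525 of 1951 ATF3 peaks (26.9%), 33 of 1096 Jun peaks (3.01%) and 1214 of 2865 JunD peaks (42.4%) did not overlap a peak of another list in its own strongest 10%. Against the whole partner lists the same peaks had no partner in 36, 0 and 34 cases. The cut lists still differed in length, and the part of length in these shares was not tested.

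Single-monomer loci lay closer to genes than loci with all 3. JunD-only loci were within 1 kb of the transcription start site (TSS) of a protein-coding gene in 25.9% of cases, beside 18.9% of all loci, ATF3-only loci in 18.5%, Jun-only loci in 17.8% and loci with all 3 in 10.4%. JunD-only exceeded all 3 by 15.5 points (Newcombe interval 14.4 to 16.5), ATF3-only exceeded all 3 by 8.12 points (6.79 to 9.48) and Jun-only by 7.35 points (3.99 to 11.2). ATF3-only and Jun-only differed by 0.776 points (-3.24 to 4.28), an interval that includes no difference. The median distance to a TSS was 8837 bp for JunD-only and 17010 bp for all 3. At equal length the shares near a TSS were 23.9% for JunD-only, 16.0% for ATF3-only, 16.7% for Jun-only and 9.16% for all 3, with JunD-only highest and all 3 lowest again.

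Away from promoters, introns held 37.5% (JunD-only), 41.9% (ATF3-only), 44.0% (Jun-only) and 44.6% (all 3) of the loci of a class, and exons held 3.25% to 4.77% of these classes. Loci also lay near each other. Another locus lay within 5 kb of 61.4% of loci with all 3, 55.6% of Jun-only, 53.1% of JunD-only and 45.4% of ATF3-only loci, so ATF3-only loci had the fewest neighbours.

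The TRE separated loci with all 3 from the single classes more than it separated the single classes from each other. It was found in the central 200 bp of 41.3% of loci with all 3, beside 25.5% of all loci, 3.29% of windows of equal length set 10 kb away and 3.6% of RefSeq promoters. Jun-only loci held it in 21.2% of cases, JunD-only in 18.8% and ATF3-only in 14.2%. Pairs held it in 18.1% (ATF3 and Jun), 23.7% (ATF3 and JunD) and 29.0% (Jun and JunD) of cases. ATF3-only loci had fewer TREs than all 3 by a difference of -27.2 points (-28.6 to -25.7) and fewer than JunD-only by -4.63 points (-5.87 to -3.34), while Jun-only and JunD-only differed by 2.37 points (-1.26 to 6.50). The CRE was found in 7.02% of all loci, in 9.49% of all 3 and in 5.01% to 6.83% of the single classes, against 1.95% of flanking windows and 3.78% of promoters. At equal length ATF3-only held it in 4.21% of cases, less than Jun-only by -4.08 points (-5.48 to -2.70). A TRE or a CRE was present at 48.3% of loci with all 3, beside 31.2% of all loci, and at 18.5% of ATF3-only loci. Most loci of each class thus held no exact AP-1 consensus.

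TGATGCAA, a search that was added after the data had been seen, marked the ATF3-only class. It was found at 490 of 4174 ATF3-only loci (11.7%, interval 10.8 to 12.8), beside 2.91% of all loci, 0.495% of flanking windows and 0.639% of promoters. JunD-only loci held it in 55 of 12047 cases (0.457%, interval 0.351 to 0.594), where their flanks held it in 0.436%. Jun-only loci held it in 1 of 439 cases (0.228%). Among shared classes it was found at 3.78% of ATF3 and JunD, 2.58% of ATF3 and Jun, 2.05% of all 3 and 0.253% of Jun and JunD loci, so each class with ATF3 had more of it than each class without. At equal length ATF3-only loci held it in 15.2% of cases, Jun-only in 0.463% and JunD-only in 0.119%.

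The CEBP motif was also most frequent at ATF3-only loci. It was found at 13.0% of ATF3-only loci, beside 8.37% of all loci, 2.69% of flanks and 2.47% of promoters, with 9.83% for all 3, 5.92% for Jun-only and 4.79% for JunD-only. ATF3-only exceeded JunD-only by 8.17 points (7.11 to 9.29). The PU.1 motif was found at 19.4% of ATF3-only, 21.3% of JunD-only, 22.4% of all 3 and 24.8% of Jun and JunD loci, beside 21.9% of all loci, 5.05% of flanks and 6.80% of promoters. JunD-only against all 3 turned with list length, from -1.15 points (-2.29 to -0.00452) in whole lists to 4.99 points (2.66 to 7.40) at equal length, where JunD-only held it in 27.6% of cases.

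The Sp1 motif (CCCCGCCC), a GC-rich word of many promoters, was most frequent at JunD-only loci. It was found at 8.10% of them, beside 5.21% of all loci, 0.892% of flanks and 15.3% of promoters, and at 5.24% of Jun-only, 3.81% of ATF3-only and 2.55% of all 3 loci. Within 1 kb of a TSS, where most of these matches lay, JunD-only loci held it in 23.9% of cases, Jun-only in 20.5%, ATF3-only in 15.0% and all 3 in 13.1%. Farther out it was found at 2.59% of JunD-only and 1.32% of all 3 loci. Jun-only loci held the E-box word TCACGTG of the MiT factors Mitf and Tfec in 6.15% of cases (27 loci), beside 3.19% of all loci, 0.858% of flanks and 3.01% of promoters, against 3.28% of ATF3-only, 2.99% of JunD-only and 2.89% of all 3 loci. Jun-only exceeded JunD-only by 3.16 points (1.25 to 5.83) and all 3 by 3.26 points (1.33 to 5.93). At equal length the Jun-only share was 4.30%, which exceeded all 3 by 1.66 points (0.800 to 2.62), and the interval of its difference from JunD-only (-0.199 to 2.18 points) includes no difference. The Runx word TGTGGTT was found at 6.61% to 7.49% of these 4 classes in the whole lists, beside 7.33% of all loci, 5.15% of flanks and 3.51% of promoters, and the intervals of their differences include no difference. At equal length JunD-only held it in 8.58% of cases and exceeded ATF3-only and Jun-only, the latter with a difference of Jun-only from JunD-only of -1.93 points (-3.64 to -0.280).

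**Figure D3:**
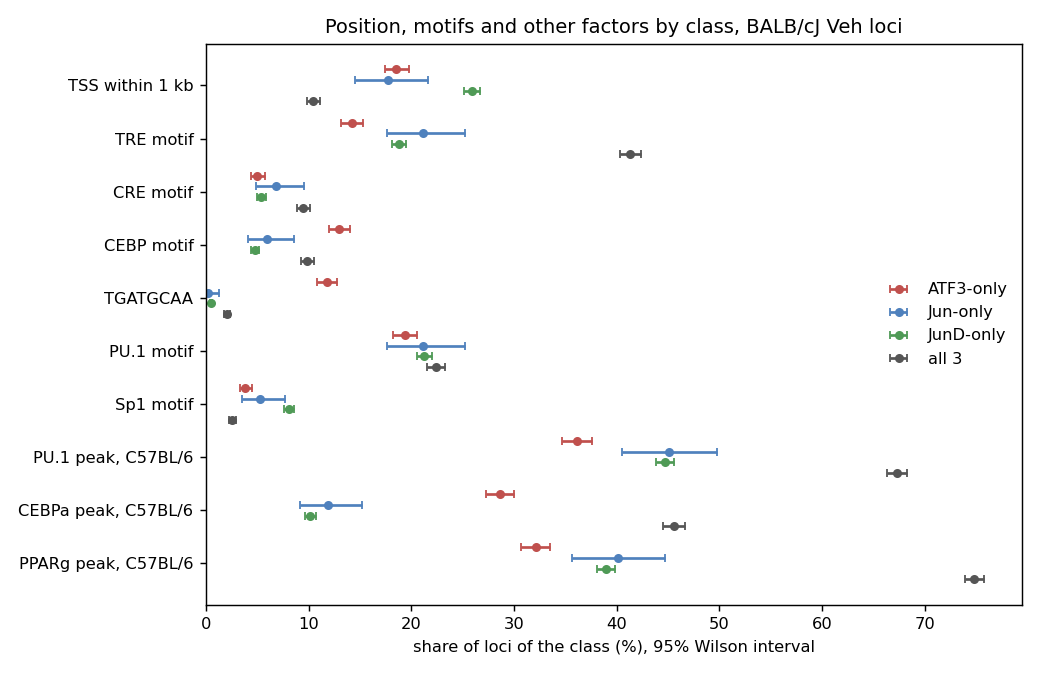
Share (%) of ATF3-only, Jun-only, JunD-only and all 3 loci near a TSS, with each motif in the central 200 bp, and with a peak of PU.1, CEBPα or PPARγ in C57BL/6 Veh. Points are shares and bars 95% Wilson intervals. TGATGCAA is at 11.7% of ATF3-only loci and at most 2.05% of the other classes shown, and the TRE is at 41.3% of all 3 and at most 21.2% of the single classes.

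Comparing loci of like rank kept most of these contrasts. Among ATF3 peaks below the median count, the TRE was found at 15.1% of ATF3-only and 33.4% of all 3 loci. Between the 75th and 90th percentile the shares were 11.5% (18 of 157) and 44.2%, and above the 90th they were 0 of 36 (which allows up to 8.33%) and 50.1%. TGATGCAA went the other way, from 9.12% to 29.3% and then 38.9% (14 of 36) of ATF3-only loci in the same bins, against 0.301%, 1.87% and 6.03% of all 3. The strongest ATF3-only loci were thus poorest in the TRE and richest in TGATGCAA. The CEBP motif was more frequent at ATF3-only than at all 3 loci in each bin below the 90th percentile, with 11.9% against 6.42% in the lowest. Above the 90th it was less frequent, with 8.33% (3 of 36) against 14.6%.

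JunD-only loci were more often near a TSS than loci with all 3 in each of the 4 bins of JunD rank. The shares were 25.6% against 11.4% below the median, 29.0% against 12.7% from the 50th to the 75th percentile, 19.0% against 10.96% from the 75th to the 90th and 20.6% (7 of 34) against 7.47% above it. The Sp1 motif was at 7.72% against 2.77% in the lowest of these bins and at 5.65% against 2.64% from the 75th to the 90th percentile. The TRE was less frequent at JunD-only loci in both, with 18.4% against 24.4% and 27.4% against 39.3%.

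**Figure D4:**
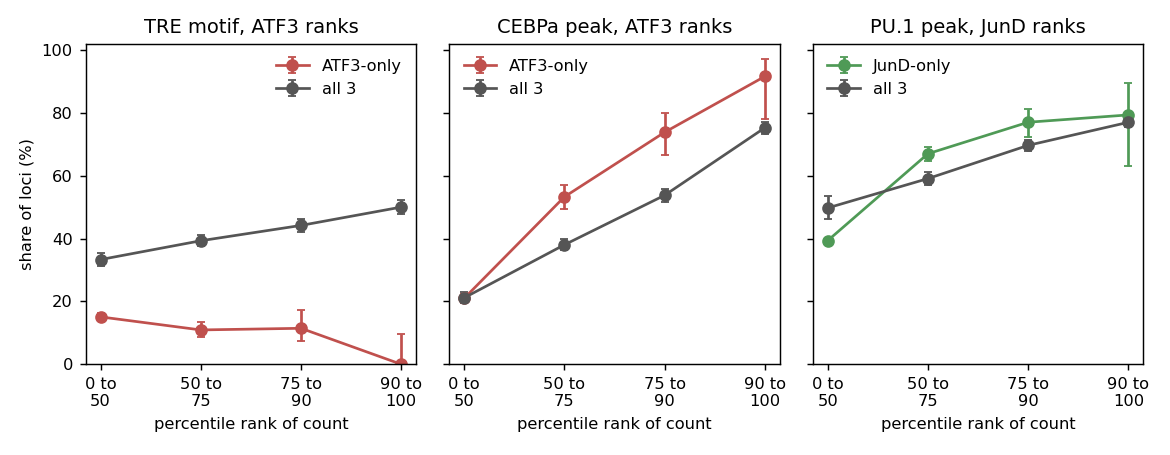
Share (%) of loci with a TRE (left), a CEBPα peak (middle) and a PU.1 peak (right) in 4 bins of percentile rank by count within the ATF3 or JunD list, for single-monomer loci and all 3, with 95% Wilson intervals. CEBPα peaks rise from 21.01% to 91.7% of ATF3-only loci while the TRE falls from 15.1% to 0 of 36.

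Peaks of lineage factors in resting C57BL/6 TGEMs were also set against the classes. PU.1, the ETS factor that opens macrophage enhancers, had a peak at 67.3% of loci with all 3, beside 52.2% of all loci, and at 45.1% of Jun-only, 44.7% of JunD-only and 36.1% of ATF3-only loci. PPARγ, a lipid-activated nuclear receptor, had one at 74.8% of all 3, beside 51.4% of all loci, and at 40.1%, 38.9% and 32.1% of Jun-only, JunD-only and ATF3-only loci. CEBPα, a bZIP factor of the myeloid lineage, had another order. It was at 45.6% of all 3, beside 27% of all loci, while the single classes had 28.6% (ATF3-only), 11.8% (Jun-only) and 10.2% (JunD-only). ATF3-only exceeded JunD-only by 18.5 points (16.99 to 19.9). These lists are from the other strain, and the share of loci with no peak of the 3 monomers there was 43.3% for ATF3-only, 47.8% for Jun-only and 61.6% for JunD-only.

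Rank changed these comparisons. Below the median ATF3 count, CEBPα peaks were at 21.01% of ATF3-only and 21.2% of all 3 loci. Between the 50th and 75th percentile they were at 53.3% and 38%, between the 75th and 90th at 73.9% and 53.8%, and above the 90th at 91.7% (33 of 36) and 75.3%. Within each bin above the median, ATF3-only loci had a CEBPα peak more often than loci with all 3, although their share over the whole class was lower. PU.1 went the other way and was less frequent at ATF3-only loci in each bin, with 34.3% against 61.0% below the median and 44.4% against 73.9% above the 90th percentile. JunD-only loci had a PU.1 peak less often than all 3 below the median JunD count (39.4% against 49.8%). They had one more often between the 50th and 75th percentile (67.1% against 59.1%) and between the 75th and 90th (77.1% against 69.7%). Above the 90th the shares were 79.4% (27 of 34) against 77.1%. PPARγ peaks were at 32.8% of JunD-only against 45.6% of all 3 loci below the median JunD count. The shares were 63.7% against 63.4% from the 50th to the 75th percentile and 80.95% against 77.3% from the 75th to the 90th. Above the 90th they were 82.4% (28 of 34) against 90.9%. By ATF3 rank, PPARγ was less frequent at ATF3-only than at all 3 loci in each bin (28.6% against 59.9% below the median).

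The next question is whether a locus with 1 monomer in BALB/cJ had only the same monomer in C57BL/6, where the 3 resting lists gave 29552 loci. Of 4174 ATF3-only loci, 1062 (25.4%, interval 24.1 to 26.8) were ATF3-only in C57BL/6, beside 10.6% of all BALB/cJ loci. ATF3 was called there with another monomer at 1009 (24.2%), the other monomers without ATF3 at 295 (7.07%), and no peak at 1808 (43.3%). Of 12047 JunD-only loci, 1011 (8.39%, interval 7.91 to 8.90) were JunD-only in C57BL/6, beside 5.12% of all loci, and 7426 (61.6%) had no peak. Of 439 Jun-only loci, 15 (3.42%, interval 2.08 to 5.56) were Jun-only, beside 2.68% of all loci, so the interval of Jun-only includes the level of all loci.

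**Figure D5:**
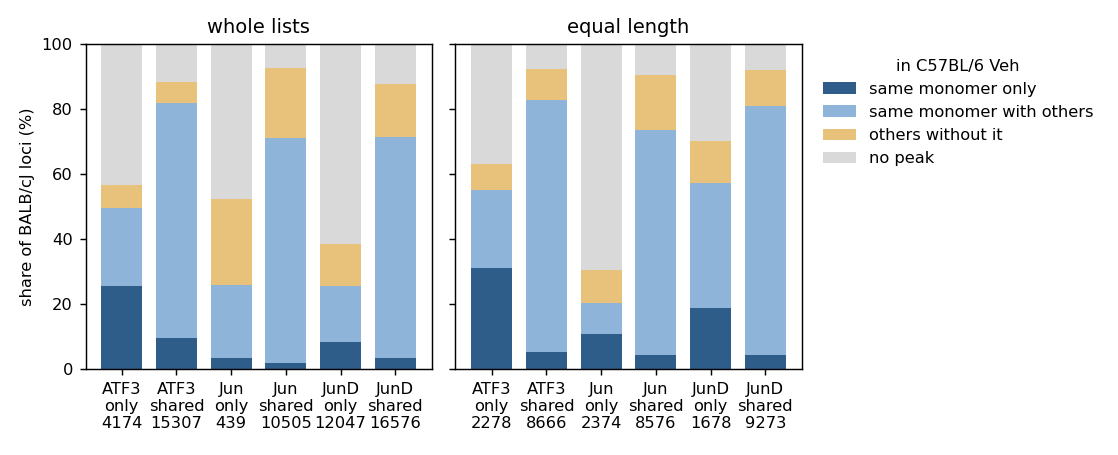
State in C57BL/6 Veh (stacked shares, %) of BALB/cJ loci that hold a monomer alone or shared with others, for whole lists and for lists of equal length, with the number of loci under each bar. With whole lists the same monomer is alone in C57BL/6 at 25.4% (ATF3-only), 3.42% (Jun-only) and 8.39% (JunD-only), and at 31.0%, 10.7% and 18.8% at equal length.

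Shared loci of the same monomers give the comparison. ATF3 was alone in C57BL/6 at 9.44% of the 15307 loci where it was shared in BALB/cJ, Jun at 1.74% of 10505 and JunD at 3.21% of 16576. Within 10 bins of the BALB/cJ list by count, the Mantel-Haenszel odds ratio of being single for the same monomer in C57BL/6 was 2.61 (2.38 to 2.87) for ATF3 and 2.59 (2.30 to 2.92) for JunD. For Jun it was 0.886 (0.514 to 1.53), and without the bins it was 2.00 (1.17 to 3.41). An ATF3-only or JunD-only locus was thus more often single for its monomer in the other strain than a shared locus of like rank, and for Jun-only this was not detectable with 439 loci.

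Many single loci lacked the monomer itself in C57BL/6. Among BALB/cJ loci where C57BL/6 also had the monomer, ATF3 was alone in C57BL/6 at 1062 of 2071 ATF3-only loci (51.3%) and at 11.5% of shared loci. The values for JunD were 1011 of 3077 (32.9%) and 4.50%, and for Jun 15 of 113 (13.3%) and 2.46%. Loci with no peak in C57BL/6 were mostly weak ones. Of ATF3-only loci below the median ATF3 count, 51.8% had no peak in C57BL/6, and above the 90th percentile 0 of 36, which allows up to 8.33%. For JunD-only loci these values were 71.3% and 0 of 34 (up to 8.82%).

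Calling a locus kept where C57BL/6 had the same monomer alone, the share kept was higher at equal length for each monomer. ATF3-only loci were ATF3-only in C57BL/6 in 706 of 2278 cases (31.0%), beside 8.05% of all loci at that length. Jun-only loci were Jun-only in 254 of 2374 (10.7%), beside 5.52%, and JunD-only loci were JunD-only in 316 of 1678 (18.8%), beside 5.52%. The odds ratios were 7.61 (6.61 to 8.76) for ATF3, 1.60 (1.32 to 1.94) for Jun and 3.04 (2.58 to 3.59) for JunD, so ATF3-only was the class most often kept. In the other direction and with whole lists, 1015 of 3257 C57BL/6 JunD-only loci (31.2%), 1065 of 5931 ATF3-only (17.96%) and 16 of 2182 Jun-only loci (0.733%) were single for the same monomer in BALB/cJ, where the JunD list is longer and the Jun list shorter than in C57BL/6 (19653 and 15548 peaks). At equal length these shares were 19.3%, 36.4% and 11.7%.

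The other monomers were also called in C57BL/6 at BALB/cJ single loci, with or without the original one. Over all loci of a class, JunD was called at 23.9% of ATF3-only and 31.0% of Jun-only loci, ATF3 at 24.0% of JunD-only and 41.2% of Jun-only loci, and Jun at 18.5% of ATF3-only and 15.4% of JunD-only loci. Of all BALB/cJ loci, 29.4% had all 3 in C57BL/6, 11.6% had ATF3 and JunD and 10.6% were ATF3-only there. Each of the single-class values is thus below the share of all loci with that monomer. Of the 181 Jun-only loci with ATF3 in C57BL/6, 51 were ATF3-only there and 45 had ATF3 and JunD without Jun. These are 11.6% and 10.3% of Jun-only loci, beside 10.6% and 11.6% of all loci. Loci with all 3 changed least: 6016 of 8616 (69.8%) had all 3 in C57BL/6, beside 29.4% of all loci. No peak was found at 405 (4.70%), beside 34.4% of all loci. Pairs mostly became other classes. ATF3 and JunD was the same pair at 18.3% of its loci, beside 11.6% of all loci, and all 3 at 29.8%. Jun and JunD was the same pair at 4.18%, beside 2.07% of all loci, and all 3 at 33.6%. ATF3 and Jun was the same pair at 10%, beside 4.06% of all loci, and all 3 at 25.5%.

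Kept loci differed in sequence from lost ones. TGATGCAA was at 253 of 1062 ATF3-only loci that were ATF3-only in both strains (23.8%, interval 21.4 to 26.5), at 8.35% of those with no peak in C57BL/6 and at 6.60% of those in another class. JunD-only loci that were kept lay near a TSS in 39.8% of cases (interval 36.8 to 42.8), against 25.5% of those with no peak, and held none of TGATGCAA (0 of 1011, which allows up to 0.297%). Kept ATF3-only loci also had higher counts than those without a peak in C57BL/6, with a median rank of 33.8 against 12.7. For JunD-only loci the ranks were 38.4 against 15.7. Loci in another class in C57BL/6 ranked above the kept ones, at 38.3 for ATF3-only and 44.9 for JunD-only. Kept Jun-only loci had a median rank of 8.53, the same as Jun-only loci without a peak, and those in another class had 17.7. The part of rank in these differences was not tested.

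After KLA, an activating signal that induces Fos and JunB, the classes were read again in BALB/cJ. ATF3 had a peak after KLA at 94.9% of resting all 3 loci, beside 66.6% of all loci, and less often at single loci, with 56.5% for ATF3-only, 52.6% for Jun-only and 41.8% for JunD-only. JunD had one at 88.3%, beside 59.5% of all loci, and at 41.0%, 44.0% and 39.8% of these single classes. Jun, whose KLA list is short with 11317 peaks, had one at 56.5% of all 3, beside 26.9% of all loci, and at 11.8%, 14.6% and 10.8%. The share with a JunD peak after KLA was higher by 1.28 points at ATF3-only than at JunD-only loci (-0.444 to 3.01), an interval that includes no difference.

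The monomers that KLA induces also favoured shared loci. Fos had a peak after KLA at 94.3% of all 3, beside 67.7% of all loci, and at 54.9% of Jun-only, 49.7% of ATF3-only and 47.7% of JunD-only loci. JunB had one at 79.7% of all 3, beside 44.2% of all loci, and at 27.1%, 25.7% and 21.9%. All 5 monomers were called after KLA at 51.3% of all 3 loci, beside 21.8% of all loci, and at 6.93% to 9.11% of the single classes. Below the median ATF3 count, ATF3 itself had a KLA peak at 50.4% of ATF3-only and 85.1% of all 3 loci, and between the 50th and 75th percentile at 77.5% and 95.8%. From the 75th to the 90th the shares were 89.2% and 98.8%, and above it 36 of 36 and 99.8%. Fos from the 75th to the 90th percentile was at 92.9% of JunD-only against 97.0% of all 3 loci by JunD rank. By ATF3 rank it was at 65.0% of ATF3-only against 98.1%.

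Single occupancy was mostly not kept through KLA. Counting the same 3 monomers, ATF3-only loci were still ATF3-only after KLA in 876 cases (20.99%), beside 12.8% of all loci. They had ATF3 and JunD in 1040 (24.9%), beside 27.8% of all loci, and none of the 3 in 1534 (36.8%), beside 26.3%. JunD-only loci were still JunD-only in 1195 cases (9.92%), beside 6.16% of all loci. They were ATF3-only in 1429 (11.9%), beside 12.8% of all loci, and without the 3 in 5675 (47.1%), beside 26.3%. Of 439 Jun-only loci, 2 were still Jun-only (0.456%, beside 0.349% of all loci) and 160 (36.4%) held none of the 3, beside 26.3%. The ATF3 list held 36821 peaks after KLA and 19506 at rest, and the part of list length in these changes was not tested.

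The strongest ATF3-only loci had ATF3 counts above those of most shared loci. The first, with a count of 177 (place 96 of 19506 in the list), lay 153 bp before the TSS of Uvssa, which encodes a factor of transcription-coupled DNA repair. In C57BL/6 it had all 3 monomers, at counts of 208 for ATF3, 25 for Jun and 59 for JunD. The next (175) lay in an intron of the gene model Gm20388, 21496 bp before the TSS of Klhdc4, and had ATF3 at 252 and JunD at 52 in C57BL/6. A locus at a count of 138 lay 26968 bp after the TSS of Trpv2, a cation channel gene, and had ATF3 at 196 and JunD at 49. Each of the 3 loci had a CEBPα peak in C57BL/6.

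The strongest ATF3-only loci kept in C57BL/6 each held TGATGCAA. The first (count 114) lay between genes, 12085 bp before the TSS of Klrb1b, which encodes a C-type lectin receptor of NK cells, and had a C57BL/6 count of 153. The next (107, and 220 in C57BL/6) lay in an intron of Slc39a11, a zinc transporter gene, and its window printed above holds the word 3 times within a run of near-identical repeats. Neither had a resting or C57BL/6 peak of Jun or JunD.

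The strongest Jun-only loci were weaker. The first (count 55, place 1378 of 10957) lay between genes with its nearest TSS, that of Incenp, 39542 bp away. Incenp encodes a scaffold of the chromosomal passenger complex. In C57BL/6 this locus had all 3 monomers, with ATF3 at 137, JunD at 99 and Jun at 50, where the medians of those lists were 56, 50 and 25. The second (49) lay in an exon of Pik3r3, a regulatory subunit gene of PI3K, and also had all 3 in C57BL/6, with ATF3 at 73, JunD at 76 and Jun at 34. The next (42) lay 172 bp before the TSS of Klf6, a zinc finger factor gene, and was Jun-only in C57BL/6 with a count of 35. It was the strongest of the 15 Jun-only loci kept. The following one, in an intron of Plek and 7197 bp before the TSS of Cnrip1, had counts of 25 and 16. The Klf6 and Incenp windows printed above hold none of the marked words.

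The strongest JunD-only loci included 1 near each ferritin gene. The first (count 148, place 859 of 28652) lay in an intron of Igf2r, the mannose-6-phosphate receptor gene of lysosomal enzyme sorting, and had all 3 in C57BL/6 with ATF3 at 146, JunD at 161 and Jun at 40. At a count of 146, a locus at chr19:9986669-9986943 lay 3691 bp after the TSS of Fth1, the ferritin heavy chain gene, in an exon of the neighbouring gene Best1. It was JunD-only in C57BL/6 with a count of 57, and JunD was the only one of the KLA monomers with a peak there. Another (146) lay in an intron near the TSS of Ing4, a reader of histone methylation, and had all 3 in C57BL/6. The next one kept (140, and 78 in C57BL/6) lay 2816 bp after the TSS of Ftl1, the ferritin light chain gene.

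Among pairs, the strongest ATF3 and Jun locus lay 71965 bp after the TSS of Pfkfb3, an activator of glycolysis, with counts of 204 for ATF3 and 120 for Jun. It was ATF3 and Jun in C57BL/6 as well (290 and 106), and its window holds 2 TREs and a CRE. The second, 68468 bp from the TSS of Tnfaip3, the gene of a ubiquitin-editing inhibitor of NF-κB, had 126 and 80 and all 3 in C57BL/6. ATF3 and JunD was strongest in an intron of Pkd1l2 (147 and 205) and in an exon whose nearest TSS is that of Arntl2, a clock factor gene (216 and 141). Jun and JunD was strongest 650 bp before the TSS of Stk40, a pseudokinase gene (71 and 219), and in an intron of Psen2, a presenilin gene (69 and 151). The Stk40 window holds a TRE and TGATGCAA, and in C57BL/6 the same locus had ATF3 at 371. All 3 was strongest between genes nearest to Tob2, an antiproliferative gene, with 221 for ATF3, 128 for Jun and 284 for JunD, and near Prss56, a serine protease gene, with 249, 121 and 280.

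By nearest TSS, ATF3-only loci were most numerous at Mbnl1, a splicing regulator gene (9 loci), then at Foxp1, Klf4 and Zfp608 (8 each), of which Klf4 encodes a zinc finger factor of monocytes, and at Lpp and Tbl1xr1 (7 each). JunD-only loci were most numerous at Zeb2 (22), a zinc finger repressor gene of tissue macrophages, Zmiz1 (19), St3gal1 (17), and Jarid2, Lpp, Mtss1 and Prex1 (16 each). Jun-only loci were at most 3 per gene, at Map3k20, a stress kinase gene. These counts are not scaled to the length of the region that a TSS is nearest to.

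Most genes on lists of macrophage function had a locus, beside 45.7% of all protein-coding genes. A locus in the gene or within 5 kb of it was found at 19 of 20 macrophage transcription factor genes, 22 of 23 chemokine and cytokine genes, 20 of 21 receptor and surface protein genes, 19 of 20 lipid handling genes, 23 of 24 lysosome and protease genes, 13 of 15 iron, heme and oxidative stress genes, 24 of 31 proteasome subunit genes and all 24 AP-1 and related bZIP genes. JunD-only loci were at 18 of 20 transcription factor, 20 of 24 lysosome, 14 of 20 lipid, 12 of 21 receptor and 9 of 23 chemokine genes, beside 29.8% of all protein-coding genes. ATF3-only loci were at 10 of 20, 8 of 24, 8 of 20, 8 of 21 and 9 of 23, beside 12.9%. Chemokine and cytokine genes had as many genes with ATF3-only as with JunD-only loci. Jun-only loci were at 3 of 20, 3 of 24, 0 of 20, 1 of 21 and 1 of 23, beside 1.66% of all genes.

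Several AP-1 genes had strong JunD-only loci at their own promoters. Fosl2 had one 21 bp after its TSS (count 103), Junb one 113 bp before (68) and Jdp2, the gene of a bZIP repressor of AP-1, one 789 bp before (64). Each of the 3 had ATF3 and JunD in C57BL/6. Atf3 had a JunD-only locus in an intron, 14707 bp before the nearest TSS of the gene (81), again ATF3 and JunD in C57BL/6. At these 4 loci ATF3 was called in C57BL/6 and not in BALB/cJ, though each of the 4 genes had ATF3 at another locus in BALB/cJ.

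Among surface receptor genes, Cd44, the hyaluronan receptor gene, had a JunD-only locus 45 bp before its TSS (114), and Trem2, a lipid-sensing receptor gene, one 24 bp after (106). Both had all 3 monomers in C57BL/6. The JunD-only locus at the TSS of Fcgr3, an Fcγ receptor gene (56), and one in an intron near Axl, a receptor of apoptotic cells (85), were JunD-only in both strains. Clec4e, a receptor of mycobacterial glycolipids, had an ATF3-only locus 85 bp before its TSS (52), and Mrc1, the mannose receptor gene, one 4799 bp after (72).

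Pparg itself had an ATF3-only locus in an intron (count 105, percentile rank 94.6) that had all 3 in C57BL/6, and a JunD-only one (62). Klf4 had a JunD-only locus 534 bp before its TSS (68) and an ATF3-only one 2244 bp before (54). Among lipid genes, Plin2, the lipid droplet coat gene, had a JunD-only locus 33 bp after its TSS (56), which was JunD-only in C57BL/6. Ccl6 had JunD-only loci at its TSS (63) and 2815 bp before (98), both all 3 in C57BL/6.

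The Fth1 gene had both ATF3-only and JunD-only loci. Its 6 loci were JunD-only at -4382 bp from the TSS (count 23), ATF3 and JunD at -2021 bp (30 and 120), ATF3-only at -99 bp (57), at 1107 bp (51) and at 1754 bp (80), and JunD-only at 3691 bp (146). Jun had no peak at any of them. In C57BL/6 the loci at -2021, -99 and 3691 bp had the same class, and the other 3 had no peak.

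Mmp12, the macrophage elastase gene, also had 6 loci. They were JunD-only at -29 bp (35), ATF3-only at 10911 bp in an exon (22), Jun and JunD near -999 bp (21 and 23) and at -62 bp of another TSS of the gene (37 and 85), ATF3 and JunD at -3536 bp (27 and 33), and all 3 at 1254 bp (33, 22 and 67). The single loci and the one near -999 bp had no peak in C57BL/6. Cxcl10, an interferon-induced chemokine gene, had 1 locus, ATF3-only at -4857 bp (27), with ATF3 and JunD in C57BL/6. Spsb1, Spsb3 and Marco had no locus of the 3 monomers.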

How the data were processed

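The authors aligned ChIP-seq reads with Bowtie2, those of BALB/cJ to a genome built for that strain whose positions were then moved to mm10, in which reads inside BALB/cJ deletions were not analysed, called peaks with HOMER against input, and kept peaks with an IDR below 0.05 over replicates. The deposited lists give each peak a count of reads, not scaled to library size, and how counts of replicates were combined is not given in the sources used here. The deposited lists also give a score, which the authors made by scaling the IDR and which is 540 at an IDR of 0.05 and has a maximum of 1000. Peaks that overlapped by 1 bp or more were merged, and equal-length lists hold the 10957 peaks of highest count. Genes and TSSs were GENCODE protein-coding genes on GRCm38, and promoters were the RefSeq sequences, of which 32851 were searched over 150 bases before to 50 after the start. Motifs were searched as exact words on both strands in the central 200 bp and in 32507 windows set 10 kb away. All motif values come from the reference sequence of C57BL/6J.

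Shares have Wilson intervals, differences Newcombe intervals and odds ratios Robins-Breslow-Greenland intervals within 10 bins of rank. No test between samples was possible with 1 list per condition. The members, the gene lists and the motifs were chosen with earlier results of these data known. Named loci were the 3 of highest count in each single class, the 2 of highest mean rank in each other class, the 2 strongest single loci kept in C57BL/6, the 5 genes with the most single loci and ties, listed genes with a single locus in the top 10% of its class, and loci that the study shows or names. Sequence is printed for the strongest locus of each class, and 3 windows (Klhdc4, Slc39a11 and Klf6) were added after their values were seen. Overlaps, motif searches and odds ratios were tested on simulated data. Python 3.11.15, numpy 2.4.6, pandas 2.3.3, scipy 1.17.1, matplotlib 3.10.9, pyfaidx 0.9.0.4 and samtools 1.23.1 were used. Alternatives are given in the closing section. Lists of other conditions were not used. Some named loci are not reported here.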

Additional observations from a re-analysis of the deposited data

Results flagged for a closer look

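The BALB/cJ Veh list of JunB, which enters none of the comparisons above, held 9 peaks with counts from 18 to 30 (median 21), and all 9 lay at loci of ATF3, Jun or JunD. Of these loci, 7 had all 3 monomers, 1 had Jun and JunD and 1 was JunD-only. It drew attention as a signal in a list outside the comparisons, and no background for so short a list was measured.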

How the results depend on the processing

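The share of loci with all 3 monomers was 25.68% and became 24.43% with peak centres within 100 bp, 24.8% with an overlap of at least 50% of both peaks, 27.11% with partners up to 500 bp away, 38.78% with equal list lengths, 29.49% with the strongest 50% of each list and 24.75% with a scaled IDR score of at least 830. The share with 1 monomer was 49.66% and became 52.18%, 51.53%, 47.84%, 38.58% and 45.14% under the first 5 of these settings. The share of ATF3-only loci kept as ATF3-only in C57BL/6 was 25.44% and became 30.99% at equal length, 49.21% with the strongest 50% and 33.33% with the score threshold. That of Jun-only was 3.417% and became 2.029% with partners up to 500 bp away, 10.7%, 8.333% and 6.863% under these settings. That of JunD-only was 8.392% and became 8.976%, 18.83%, 13.31% and 6.649%. The order ATF3-only, JunD-only, Jun-only was kept in these, except with the score threshold, where Jun-only and JunD-only changed places. The odds ratio of Jun-only turned from 0.8864 to 1.995 without bins of rank and to 1.603 at equal length. The cause was not tested. The other 13 values of these shares moved by less than their interval, and of the values of position, motifs, other factors and odds ratios 20 did so, 60 moved by more and 2, those of the Jun odds ratio, turned. No paired analysis was possible because each condition has 1 list. The Jun list is the shortest of the 3, and no library depth is given in the lists, so the part of depth in the Jun-only calls was not tested.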
